A study of Mus musculus with 3 samples.

Results

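The Hox genes encode homeodomain transcription factors, and they were taken here as every feature whose symbol was Hoxa, Hoxb, Hoxc or Hoxd followed by digits only. The rule found 39 genes among the 53380 features of the matrices, and antisense and host transcripts with related names were left out. Hox genes lie in clusters on separate chromosomes, and within a cluster the paralog number runs with the position along the body at which a gene is switched on in the embryo. Low numbers mark the head and neck end, middle numbers the trunk, and the highest numbers the tail and the outer parts of the limbs. Fibroblasts of adult skin and other connective tissues are known to keep a Hox pattern that reflects where in the body they arose, which is why the pattern is often read as a record of position.

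The cells came from the mouse sciatic nerve, which supplies the hindlimb. Nerve-resident mesenchymal cells carried an R26-TomatoLSL reporter switched on by the inducible Pdgfrb-cre/ERT2, so the sort selects cells in which the Pdgfrb promoter drove Cre and also their descendants. The groups were intact nerve, the bridge region 7 days after injury and the bridge region 21 days after injury, and all 3 shared the same Cre and reporter. Each library was made from pooled nerves by enzymatic digestion (collagenase and hyaluronidase) and a sort for TdTomato. Beads that remove myelin were used for intact nerve alone, so the bead step and the injury cannot be told apart. No label used here gave age, sex or strain. Each group was a single library, so differences carry no p-value and cannot be checked against replicates, and the 95% intervals cover counting error only.

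The annotated cells numbered 1343 in intact nerve, 1780 at day 7 and 4111 at day 21, with a median of 5667, 19316 and 7442 UMIs per cell in that order. A UMI marks 1 captured molecule, so levels were expressed as CPM, a gene's share of all UMIs of the summed cells scaled to a fixed total, and were not divided by gene length. The authors' classes MES_PERI, MES_EPI and MES_ENDO are called perineurial (the sheath around a fascicle), epineurial (the outer connective tissue) and endoneurial (the space among the axons). In each library 8 of 8 perineurial markers, 11 of 11 epineurial markers and 7 of 8 endoneurial markers were highest in the layer of that name. The perineurial class of day 7 had a summed perineurial marker level of 756 CPM, against 5421 CPM in the perineurial class of intact nerve, so it held the name with far lower marker levels. TdTomato stood at 68.0, 73.8 and 62.5 CPM and Pdgfrb at 363, 126 and 171 CPM in intact nerve, day 7 and day 21. The libraries shared 1 to 2 annotated cell barcodes in each pair.

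Promoter windows of 4 members that the results turn on are shown, from 250 bases before to 50 bases after the RefSeq start, on GRCm38.p6 and in the direction of transcription. Hoxa10 and Hoxa11 were the posterior members with the lowest bridge levels relative to intact nerve, Hoxa7 was a trunk member of the same cluster with a different course, and Hoxd10 is the paralog of Hoxa10 that had no UMI in any annotated cell. Capitals mark GGGCGG, the GC box bound by Sp1-type factors, and TTTATG, letters found in sites of the CDX factors that switch on trunk Hox genes in the embryo, both searched on both strands. The Hoxa7 window lies at chr6:52218524-52218823 on the minus strand.
Hoxa7: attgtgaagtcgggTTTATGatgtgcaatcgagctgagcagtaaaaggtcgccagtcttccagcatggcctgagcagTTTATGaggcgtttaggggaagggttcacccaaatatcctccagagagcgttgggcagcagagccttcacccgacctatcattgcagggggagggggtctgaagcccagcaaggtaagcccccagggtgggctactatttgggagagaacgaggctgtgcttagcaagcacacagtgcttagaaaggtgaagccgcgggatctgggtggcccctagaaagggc
The Hoxa10 window lies at chr6:52240805-52241104 on the minus strand.
Hoxa10: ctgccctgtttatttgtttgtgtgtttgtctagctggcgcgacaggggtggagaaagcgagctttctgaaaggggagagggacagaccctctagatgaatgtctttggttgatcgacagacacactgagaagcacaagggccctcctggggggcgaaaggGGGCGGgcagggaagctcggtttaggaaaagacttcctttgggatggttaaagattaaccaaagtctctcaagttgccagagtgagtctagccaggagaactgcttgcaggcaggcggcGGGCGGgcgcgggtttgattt
The Hoxa11 window lies at chr6:52245761-52246060 on the minus strand.
Hoxa11: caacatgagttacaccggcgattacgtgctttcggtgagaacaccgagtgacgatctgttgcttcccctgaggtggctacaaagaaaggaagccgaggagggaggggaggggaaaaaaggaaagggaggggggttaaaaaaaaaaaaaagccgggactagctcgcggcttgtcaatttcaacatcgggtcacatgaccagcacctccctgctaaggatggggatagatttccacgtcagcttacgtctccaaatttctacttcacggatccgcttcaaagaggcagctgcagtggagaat
The Hoxd10 window lies at chr2:74691641-74691940 on the plus strand.
Hoxd10: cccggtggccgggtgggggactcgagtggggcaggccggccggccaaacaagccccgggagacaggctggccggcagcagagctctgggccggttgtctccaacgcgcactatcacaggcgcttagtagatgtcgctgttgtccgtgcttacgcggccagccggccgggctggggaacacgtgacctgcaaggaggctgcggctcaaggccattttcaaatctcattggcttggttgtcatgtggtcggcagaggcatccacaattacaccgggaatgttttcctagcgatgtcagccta
The Hoxa7 window held TTTATG at 2 places, and the shown Hoxa10 window held GGGCGG at 2 places. Neither spelling was in the Hoxa11 or the Hoxd10 window. TTTATG was in 5 of the 24 windows that the table gave for 22 members, against 11.85% of all 32851 mouse windows, and GGGCGG was in 10 of the 24, against 35.66% of all. The spelling TTTATG was chosen after the windows had been read and is a description only. CG dinucleotides had a median of 14.5 in the Hox windows and 7 in all windows, and the Hoxd10 window held 22 against 12 in the shown Hoxa10 window. A second Hoxa10 window, at chr6:52234890-52235189, held 21 and neither spelling, so the contrast with Hoxd10 depends on the window shown.

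The annotated cells held a Hox pattern built almost wholly from the Hoxa and Hoxc clusters. Of 17963 Hox UMIs over the 3 libraries, 11297 came from Hoxc, 5749 from Hoxa, 715 from Hoxb and 202 from Hoxd. At least 20 UMIs over the 3 libraries were reached by 24 of the 39 members, which were 10 of 11 in Hoxa, 4 of 10 in Hoxb, 9 of 9 in Hoxc and 1 of 9 in Hoxd. Another 8 members had 1 to 19 UMIs in all, namely Hoxa13, Hoxb5, Hoxb6, Hoxb8, Hoxb9, Hoxd3, Hoxd4 and Hoxd9. The remaining 7 had none, namely Hoxb1, Hoxb13, Hoxd1, Hoxd10, Hoxd11, Hoxd12 and Hoxd13. With a floor of 3 UMIs, a count of 0 is read as up to 0.358 CPM in intact nerve, the shallowest of the libraries. Hoxd3 and Hoxd4 share most of their exonic bases with each other or with Gm28230 on the same strand, and Hoxd10 shares 104 of its 1816 with Gm28309, so reads in those stretches could not be assigned to 1 gene.

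**Figure D1:**
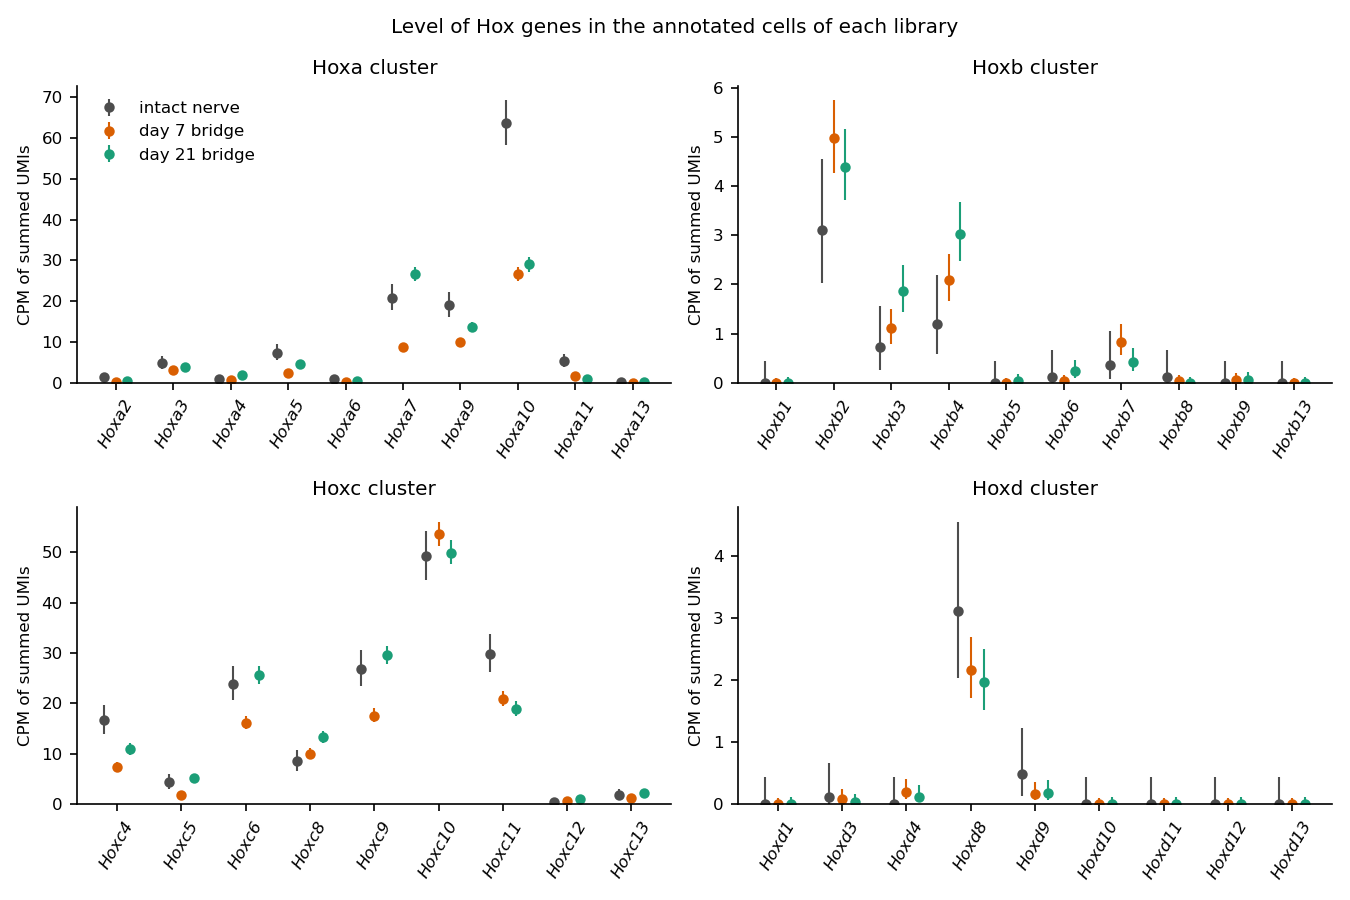
CPM of the Hox genes in the annotated cells of intact nerve, day 7 bridge and day 21 bridge, with exact Poisson 95% intervals, 1 panel per cluster and each panel with its own vertical scale. Hoxc10 and Hoxa10 are the highest points of their clusters, while Hoxb and Hoxd stay at or below 4.98 CPM.

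Paralog groups 1 to 4, which in the embryo pattern the hindbrain and neck, supplied a small share of the Hox UMIs. Their share was 9.96% in intact nerve, 10.3% at day 7 and 10.9% at day 21. Hoxc4 was the strongest of them, with 16.6, 7.33 and 10.9 CPM in the same order. Hoxa3 had 4.78, 2.99 and 3.71 CPM and Hoxb2, which patterns the hindbrain, 3.11, 4.98 and 4.39 CPM. Hoxb4 had 1.19, 2.10 and 3.03 CPM, Hoxb3 0.717, 1.11 and 1.87 CPM and Hoxa4 0.836, 0.608 and 1.90 CPM. Hoxa2 had 1.31, 0.221 and 0.445 CPM.

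The trunk groups 5 to 8 were led by Hoxc6 and Hoxa7. Hoxc6, a thoracic patterning gene, had 23.8 CPM in intact nerve, 16.2 at day 7 and 25.6 at day 21. Hoxa7 had 20.8, 8.79 and 26.6 CPM, so day 7 was the low point. Hoxc8, which acts in the lower thorax and in motor neurons of the forelimb, had 8.48, 10.04 and 13.3 CPM. Hoxa5, known for its part in the lung and cervical vertebrae, had 7.29, 2.29 and 4.63 CPM, and Hoxc5 4.30, 1.80 and 5.11 CPM. Hoxd8 was the single Hoxd member above 20 UMIs, at 3.11, 2.16 and 1.96 CPM. Hoxb7 and Hoxa6 stayed below 1 CPM in each library.

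The posterior groups 9 to 13 carried most of the Hox UMIs, at 66.6% in intact nerve, 68.0% at day 7 and 57.9% at day 21. The class mixture moved too, since perineurial cells numbered 116 of 1343, 241 of 1780 and 2069 of 4111. Within perineurial cells the share was 54.0%, 56.1% and 48.2%. It was 72.5%, 76.0% and 71.8% within epineurial and 58.7%, 61.6% and 58.7% within endoneurial cells. Hoxc10 (chr15:102966796-102971893, plus strand), a gene of the hindlimb and lumbar level, had 49.2, 53.6 and 49.9 CPM. Hoxa10 (chr6:52231197-52240854, minus strand), which with its paralogs patterns the thigh segment of the limb and the lumbar spine, had 63.7, 26.6 and 29.0 CPM. Hoxc11 had 29.9, 20.9 and 19.0 CPM and Hoxc9 26.8, 17.6 and 29.6 CPM. Hoxa9 had 19.0, 9.84 and 13.7 CPM. Hoxa11 (chr6:52242106-52245810, minus strand), whose group patterns the lower leg, had 5.26, 1.69 and 0.861 CPM. Hoxc12 and Hoxc13 stayed at or below 2.11 CPM, and Hoxa13, a gene of the foot, had 2 UMIs in all. These positions are those of GENCODE M21 on GRCm38, and Hoxc10 and Hoxc5 share 166 exonic bases on the same strand.

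Hoxc10 was the most widely detected member, and its level was above that in barcodes that should lack it. At least 1 Hoxc10 UMI was found in 21.7%, 57.0% and 27.9% of cells in intact nerve, day 7 and day 21, with Clopper-Pearson intervals of 19.6% to 24.05%, 54.7% to 59.3% and 26.5% to 29.2%. With each cell thinned to 2000 UMIs the shares were 7.30%, 9.38% and 8.29%, in the same order but far closer together. Barcodes with no class that carried myeloid markers, cells not known for Hoxc10, had a Hoxc10 UMI in 4.97% of 161 at day 21 (median 6382 UMIs) and in 5.38% of 223 at day 7 (median 7699 UMIs). Annotated cells had 49.9 CPM of Hoxc10 at day 21 and 53.6 CPM at day 7, against 8.31 and 8.56 CPM in these barcodes. Their summed Hox level was 44.03 CPM at day 21 and 45.7 CPM at day 7, and free RNA and expression of their own (Hoxa9 and Hoxa10 are known in myeloid cells) cannot be told apart there. For Hoxc10, a level near 8 CPM in a class would not stand above these barcodes. In intact nerve only 2 such barcodes were found. One perineurial cell of day 21 held 35 of the 1682 Hoxc10 UMIs of that library.

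Relative to intact nerve, day 7 bridge cells had a lower share of Hox transcripts, and a smaller part of it came from the Hoxa cluster. Hoxa supplied 27.5% of the Hox UMIs at day 7 and 42.3% in intact nerve, while Hoxc supplied 66.4% at day 7 and 54.6% in intact nerve. Summed over the 39 members, the level was 195 CPM at day 7 (190 to 199) and 295 CPM in intact nerve (284 to 307), a log2 ratio of -0.60. More than 2-fold lower at day 7 were Hoxa5, Hoxa7, Hoxa10, Hoxa11, Hoxc4 and Hoxc5, and Hoxb7 was more than 2-fold higher. That is 7 of 21 members with at least 20 UMIs over both libraries, while 26.1% of all 15012 genes passed the same rule (11.4% higher, 14.6% lower). The median log2 ratio was -0.56 over these members and -0.06 over all genes. Hoxa10 differed by -1.26 on the log2 scale (interval of the ratio 0.376 to 0.466) and Hoxa7 by -1.24 (0.351 to 0.512), which was -0.85 with the classes given the same weights in every library. Hoxa5 differed by -1.67 (0.224 to 0.446) and Hoxa11 by -1.64 (0.214 to 0.484). Hoxc4 differed by -1.18 (0.358 to 0.546) and Hoxc5 by -1.27 (0.274 to 0.647). With each cell thinned to 2000 UMIs, Hoxa11 was -0.66 and Hoxc4 -0.77, short of 2-fold. Hoxc10 differed by 0.12 (0.979 to 1.22), and Hoxc8 by 0.23 (0.915 to 1.55), so neither was separated from a ratio of 1. The call of Hoxb7 rested on 30 UMIs at day 7 and 3 UMIs in intact nerve, its interval was 0.720 to 11.9, and it was -0.63 without the dividing class.

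The lower CPM at day 7 went with larger totals per cell. Cells held on average 1.84 Hox UMIs in intact nerve, 3.96 at day 7 and 2.06 at day 21. Hoxa10 averaged 0.397, 0.541 and 0.237 UMIs per cell and Hoxc10 0.307, 1.09 and 0.409 UMIs per cell in the same order. The day 7 library was the deepest per cell, and a change in Hox RNA per cell cannot be told apart from a change in the total RNA or in sequencing depth. After thinning to 2000 UMIs per cell the summed log2 ratio of day 7 against intact nerve was -0.58. Any Hox UMI was then found in 40.9% of cells in intact nerve, 30.9% at day 7 and 37.9% at day 21, against 70.4%, 89.7% and 78.9% without thinning.

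At day 21 the summed level was 251 CPM (246 to 256), a log2 ratio of -0.23 to intact nerve, and Hoxa10 and Hoxa11 were again more than 2-fold below it. Hoxa supplied 32.7% and Hoxc 62.4% of the Hox UMIs. More than 2-fold lower than in intact nerve were Hoxa2, Hoxa10 and Hoxa11, and more than 2-fold higher were Hoxa4, Hoxb3, Hoxb4 and Hoxc12. These are 7 of 22 members, while 17.1% of all genes passed (8.90% higher, 8.20% lower). Hoxa10 differed by -1.14 (0.409 to 0.507) and Hoxa11 by -2.60 (0.0988 to 0.268), and with the same class weights in every library the differences were -0.85 and -1.87. Both comparisons with intact nerve use the same intact library, so they are not independent. The 4 higher members were weakly expressed, with 3 to 10 UMIs each in intact nerve, and the Hoxc12 interval of 0.829 to 13.5 included 1. With the same class weights in every library Hoxa4 was 0.60 and Hoxb3 -0.00199, and after thinning Hoxb4 was 0.89, each short of 2-fold. Hoxa7 differed by 0.35 (1.09 to 1.52), Hoxc9 by 0.14 (0.955 to 1.28), Hoxc6 by 0.10 (0.922 to 1.26) and Hoxc10 by 0.02 (0.910 to 1.13). Hoxc8 was higher by 0.64 (1.22 to 2.04), and Hoxc11 and Hoxc4 differed by -0.66 and -0.61.

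Set against day 7, day 21 cells had higher levels of 17 of 23 members, and the median over all genes was above 0 too. Of these 23, 5 passed 2-fold, all higher at day 21, while 18.0% of all genes passed (10.3% higher, 7.63% lower). The median log2 ratio was 0.52 over the members and 0.12 over all genes. Among those past 2-fold were Hoxa4, Hoxa5, Hoxa7 and Hoxc5, and Hoxa7 was 3.03-fold higher (2.66 to 3.45). Perineurial cells, the layer with the highest Hoxa7 level at both days, were 241 of 1780 cells at day 7 and 2069 of 4111 at day 21. The folds were formed over this changed mixture, and with the same class weights in every library Hoxa5 fell short of 2-fold. Hoxa10 differed by 0.12 (0.995 to 1.19), or by -0.01 with median-of-ratios scaling, and Hoxa11 by -0.96 (0.316 to 0.807), so neither of these posterior genes was at its intact level in the later library.

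The 3 layers of intact nerve differed in Hox pattern, and several of these differences were present in all 3 libraries. The Hoxa10 level was 34.5 CPM in perineurial, 99.5 CPM in epineurial and 28.2 CPM in endoneurial cells of intact nerve. At day 7 it was 11.5, 48.5 and 9.37 CPM and at day 21 19.7, 52.5 and 19.3 CPM in the same order of layers. Epineurial cells thus held the highest Hoxa10 level in each library, 3.51-fold, 5.11-fold and 2.71-fold above endoneurial cells in intact nerve, day 7 and day 21. Hoxa11 followed the same layer. Its UMIs in perineurial cells numbered 0 in each library, against 35, 44 and 29 in epineurial cells. Against a floor of 3 perineurial UMIs that is at least 2.14-fold, 4.06-fold and 12.6-fold lower in intact nerve, day 7 and day 21. The floor leaves out counting error, and the exact interval in intact nerve allowed as little as 1.65-fold. At day 21 all 29 Hoxa11 UMIs of the annotated cells were in epineurial cells.

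Epineurial against endoneurial intervals excluded 1 in all 3 libraries for 5 of 15 members with at least 20 UMIs in each. Hoxa9, Hoxa10, Hoxa11 and Hoxc11 were higher in epineurial cells, where 9.97% of all 11009 genes behaved so, and Hoxa7 was lower, where 10.3% did. Hoxa9 was 25.1 CPM in epineurial and 12.97 CPM in endoneurial cells of intact nerve, with ratios of 1.92, 2.26 and 1.91 in intact nerve, day 7 and day 21. Hoxc11 was 38.2 CPM in epineurial and 19.3 CPM in endoneurial cells of intact nerve, with ratios of 1.97, 2.06 and 1.64. More than 2-fold apart were 3 of 15 members in intact nerve, 7 of 16 at day 7 and 5 of 17 at day 21, beside 18.1%, 19.8% and 18.6% of all genes. The authors made the classes from the expression of these cells, so these values describe the classes.

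Perineurial cells had higher Hoxc4, Hoxc8 and Hoxc9 and lower Hoxa10 than epineurial cells. In this contrast 3 of 13 members had intervals above 1 in all 3 libraries (13.3% of all genes), namely Hoxc4, Hoxc8 and Hoxc9, and 2 had intervals below 1 (9.31% of all genes), namely Hoxa10 and Hoxa11. The Hoxc8 level was 22.1 CPM in perineurial, 7.60 CPM in epineurial and 7.20 CPM in endoneurial cells of intact nerve. At day 7 it was 18.7, 8.56 and 7.49 CPM and at day 21 18.9, 9.32 and 9.88 CPM. Hoxc8 was also the single member with an interval above 1 against endoneurial cells in all 3 libraries (1 of 11, beside 8.78% of all genes), and 0 of 11 had intervals below 1 (6.54%). Hoxc9 was 42.7 CPM in perineurial and 24.6 CPM in epineurial cells of intact nerve, with ratios of 1.76, 1.67 and 1.71 across the libraries. More than 2-fold apart between perineurial and epineurial cells were 4 of 13 members in intact nerve, 7 of 17 at day 7 and 8 of 21 at day 21, beside 29.6%, 21.5% and 25.3% of all genes. Between perineurial and endoneurial cells the counts were 4 of 12, 1 of 12 and 6 of 17, beside 28.9%, 10.1% and 20.1% of all genes, and all of these members were higher in perineurial cells (16.2%, 5.51% and 12.6% of all genes were).

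The make-up of the Hox UMIs, which does not refer to total UMIs, also differed between layers. Groups 9 to 13 supplied 54.0% of Hox UMIs in perineurial, 72.5% in epineurial and 58.7% in endoneurial cells of intact nerve. At day 7 the shares were 56.1%, 76.0% and 61.6%, and at day 21 48.2%, 71.8% and 58.7%. Epineurial cells had the most posterior make-up in each library. Perineurial cells had the lowest share, but its interval overlapped the endoneurial one in 2 libraries. These intervals were 47.3% to 60.7% and 55.1% to 62.2% in intact nerve, and 52.6% to 59.5% and 57.7% to 65.4% at day 7. The Hoxc share was 67.4%, 50.6% and 58.0% in perineurial, epineurial and endoneurial cells of intact nerve, 73.6%, 59.4% and 75.3% at day 7 and 63.1%, 58.7% and 65.0% at day 21. It was lowest in epineurial cells in each library, and the gap to perineurial cells was smallest at day 21.

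**Figure D2:**
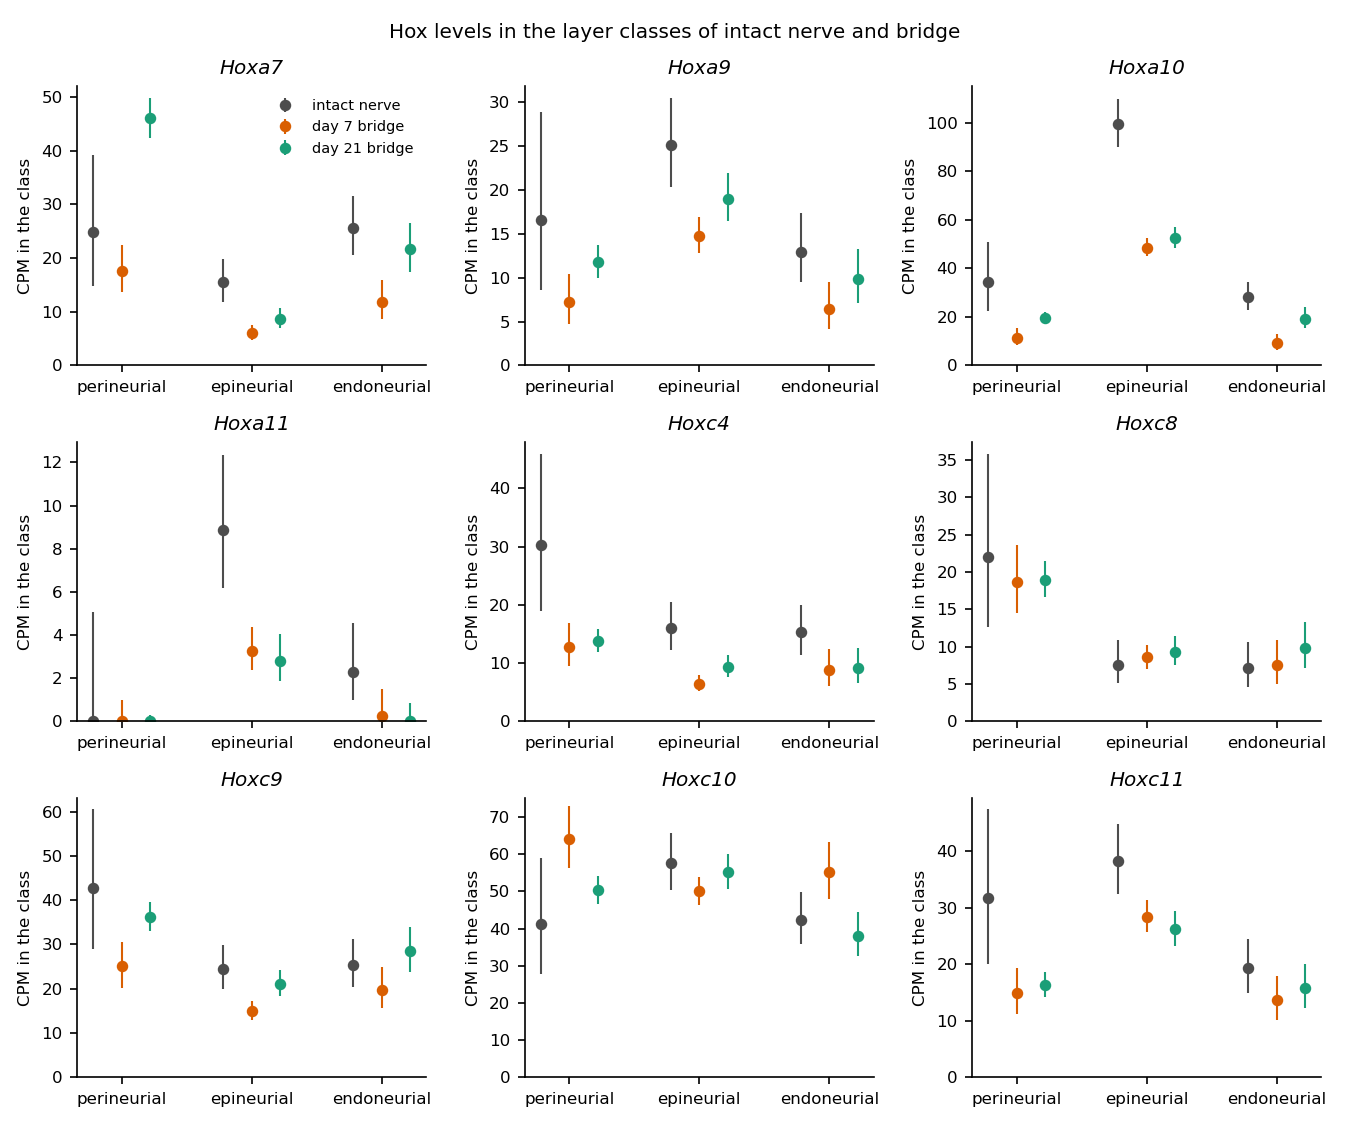
CPM of 9 Hox genes in the perineurial, epineurial and endoneurial classes of the 3 libraries, with exact Poisson 95% intervals and vertical axes that start at 0. Hoxa10 and Hoxa11 are highest in the epineurial class and Hoxc8 in the perineurial class in every library.

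Within each of the 3 layers the summed Hox level was lower at day 7 than in intact nerve. At day 21 it was still lower in epineurial and endoneurial cells, while the perineurial interval included 1. Most members lay within 2-fold of intact nerve at day 21, as they did at day 7 in epineurial and endoneurial cells. The summed level was 222 CPM at day 7 and 309 CPM in intact nerve in perineurial cells, 214 and 356 CPM in epineurial cells and 170 and 223 CPM in endoneurial cells. At day 21 it was 285, 251 and 194 CPM in the same order. The day 21 ratios to intact nerve were 0.924 (0.808 to 1.06), 0.705 (0.660 to 0.752) and 0.871 (0.789 to 0.961). In perineurial cells 6 of 11 members passed 2-fold at day 7 against intact nerve (28.6% of all genes), with Hoxa3, Hoxa9, Hoxa10, Hoxc4 and Hoxc11 lower. In epineurial cells 7 of 17 were more than 2-fold lower and none higher (19.8% of all genes, 11.3% lower), namely Hoxa3, Hoxa5, Hoxa7, Hoxa10, Hoxa11, Hoxc4 and Hoxc5. In endoneurial cells 3 of 13 were lower (20.4% of all genes, 11.1% lower), namely Hoxa5, Hoxa7 and Hoxa10. After thinning, which leaves fewer members with 20 UMIs, the day 7 counts were 1 of 2 in perineurial, 2 of 9 in epineurial and 3 of 8 in endoneurial cells, and with at least 100 UMIs they were 0 of 3 in perineurial and 3 of 9 in epineurial cells. At day 21 against intact nerve the counts were 4 of 17 in perineurial, 1 of 17 in epineurial and 0 of 13 in endoneurial cells, beside 22.9%, 11.6% and 11.8% of all genes. The lower ones were Hoxc4 in perineurial and Hoxa11 in epineurial cells, and 6.21% of all genes were lower in epineurial cells. At day 21 against day 7 all called members were higher at day 21. They were Hoxa4, Hoxa7 and Hoxc5 among 17 in perineurial cells (17.0% of all genes either way, 10.5% higher), Hoxa3 among 19 in epineurial cells (10.7% and 6.16%) and Hoxa10 among 13 in endoneurial cells (11.1% and 5.76%).

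The upward perineurial calls against intact nerve rested on counts of 0. Hoxb2 had 21 UMIs at day 7 and 71 at day 21 in perineurial cells, against 0 in the 116 perineurial cells of intact nerve. Against a floor of 3 UMIs in intact nerve it was at least 1.35-fold higher at day 7 and at least 1.28-fold higher at day 21. That floor leaves out counting error. Hoxb4 and Hoxc13 had 51 and 28 UMIs at day 21 and 0 in intact nerve, and against the same floor their day 21 level was not above intact nerve. The intact perineurial sum held 725278 UMIs, the smallest of the layer sums, which sets these limits. The perineurial class of intact nerve also held 1954 CPM of 6 vascular smooth muscle markers (3 of 6 detected), against 239 CPM at day 7 and 132 CPM at day 21, and 156 CPM of 8 skeletal muscle markers (1 of 8 detected), against 14.9 and 14.5 CPM. The gene Des is on both lists, so they are not independent of each other. Both lists move with each perineurial difference from intact nerve, and their part in it was not tested.

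Hoxa10 was lower than in intact nerve in all 3 layers at both days. At day 7 it differed by -1.60 (0.199 to 0.568) in perineurial, -1.04 (0.429 to 0.554) in epineurial and -1.58 (0.219 to 0.492) in endoneurial cells. At day 21 it differed by -0.84 (0.378 to 0.898), -0.92 (0.462 to 0.602) and -0.55 (0.505 to 0.924). No layer passed 2-fold at day 21. Hoxc4 was lower at both days in each layer, with all 6 intervals below 1. Hoxc10 differed by 0.26 in perineurial, -0.07 in epineurial and -0.15 in endoneurial cells at day 21, and each interval included 1. Its day 7 intervals were above 1 in perineurial (1.06 to 2.35) and endoneurial cells (1.05 to 1.62).

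Hoxa7 took different courses in the layers. In perineurial cells it was 24.8 CPM in intact nerve, 17.6 CPM at day 7 and 46.0 CPM at day 21, while in epineurial cells it was 15.5, 6.05 and 8.64 CPM. In endoneurial cells it was 25.6, 11.8 and 21.6 CPM. At day 21 it differed from intact nerve by 0.85 (1.16 to 3.15) in perineurial cells and by -0.84 (0.399 to 0.788) in epineurial cells, and the difference between these was not tested. Perineurial cells held 5.30-fold more Hoxa7 than epineurial cells at day 21 (4.26 to 6.72) and 1.64-fold more in intact nerve (0.893 to 2.75). Hoxa7 is also high in endothelial-marker barcodes, at 83.9 CPM at day 21. The summed level of 8 endothelial markers was 284 CPM in perineurial and 63.5 CPM in epineurial cells of day 21 (8 of 8 detected in each). In intact nerve it was 357 CPM in perineurial cells, from only 2 of the 8 markers, and 8.11 CPM in epineurial cells (7 of 8). Hoxd9 and Hoxb9, the members typical of those barcodes, had 0 and 1 UMIs in the 2069 perineurial cells of day 21. Without cells carrying at least 4 markers of another type, perineurial Hoxa7 was 46.4 CPM at day 21 and 24.8 CPM in intact nerve. This step removed 36 of 2069 perineurial cells at day 21, of which 2 carried endothelial markers, and 0 of 116 in intact nerve. It could not change the intact value, and the part of endothelial RNA was not tested.

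**Figure D3:**
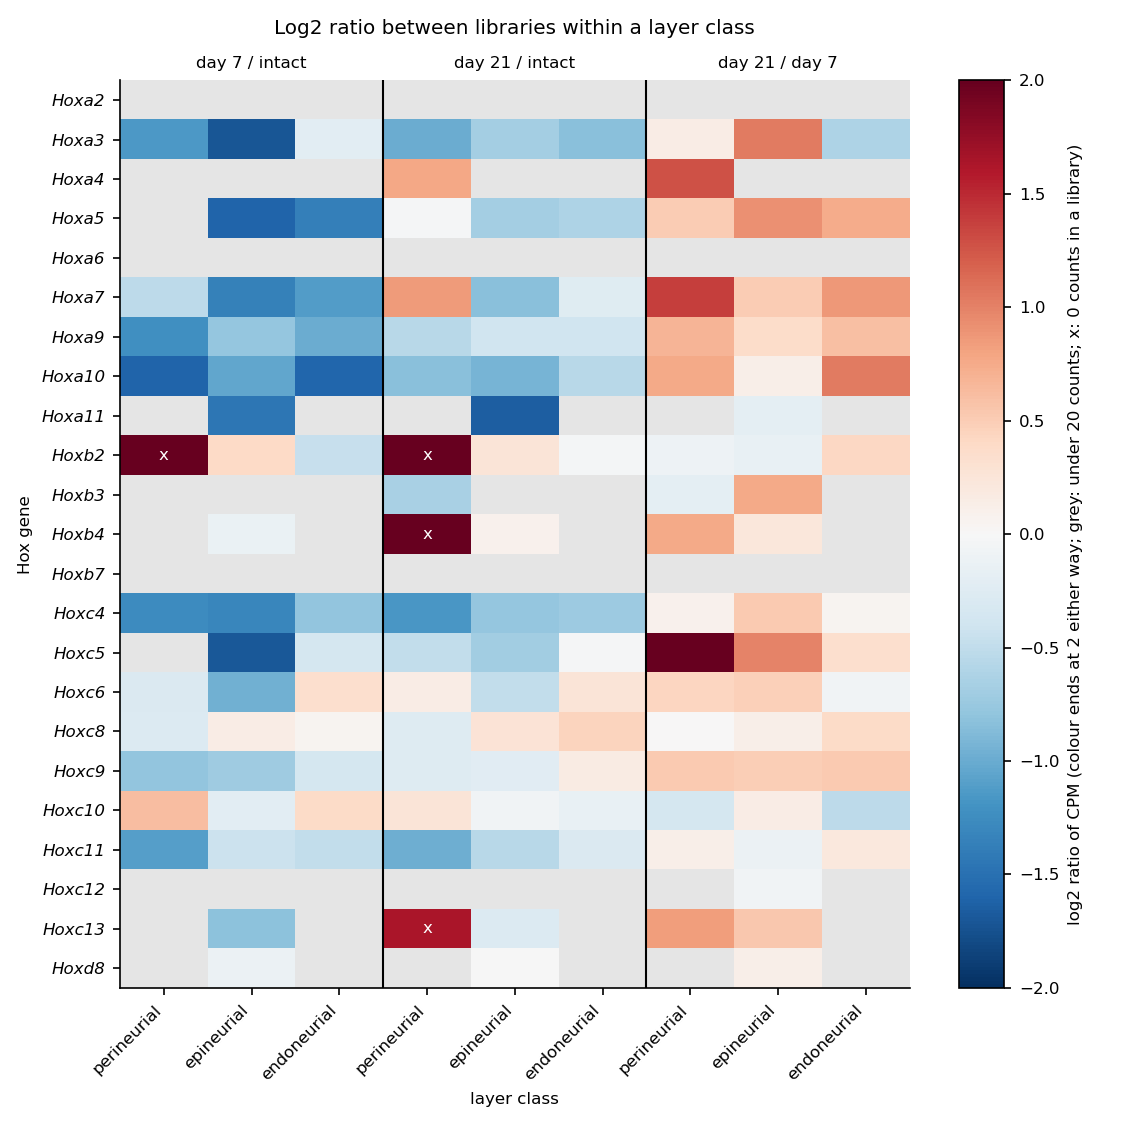
Log2 ratio of CPM between libraries for 23 Hox genes (vertical) within the perineurial, epineurial and endoneurial classes (horizontal), for day 7 over intact nerve, day 21 over intact nerve and day 21 over day 7. Blue is lower and red higher in the first-named library, grey marks under 20 UMIs over both, and x marks a ratio with 0 UMIs in one library, which depends on the 0.5 added to each sum.

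In the classes found mainly in the bridge, Hoxc and Hoxa again supplied most Hox UMIs. In MES_DIFF cells Hoxc supplied 68.2% at day 21 and 72.4% at day 7, and Hoxa 24.8% and 21.6%. In dividing cells Hoxc supplied 57.9% at day 21 and 66.1% at day 7, and Hoxa 27.8% and 21.7%. The MES_DIFF class, whose name is not explained in the sources used here, had 387 cells at day 21 and 308 at day 7, and the dividing class had 119 and 206. In MES_DIFF cells 6 of 17 members were more than 2-fold higher at day 21 than at day 7 (17.6% of all genes, 10.5% higher), namely Hoxa5, Hoxa7, Hoxb3, Hoxc5, Hoxc9 and Hoxd8. Hoxc9 was 33.2 CPM at day 21 and 15.9 CPM at day 7, and Hoxa7 19.4 and 6.75 CPM, while Hoxc10 was 50.9 and 54.6 CPM. The markers of the class moved too. Its summed perineurial markers were 1006 CPM at day 21 and 207 CPM at day 7, its epineurial markers 2068 and 1093 CPM and its injury mesenchymal markers 2992 and 8842 CPM, and their part in the Hox differences was not tested. The MES_EPI-diff class of day 7, with 94 cells, had 54.6 CPM of Hoxc10 and 17.4 CPM of Hoxa10.

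Hoxb supplied 12.8% of the Hox UMIs of dividing cells at day 21 and 11.0% at day 7, beside 4.11% and 4.56% in perineurial, 2.59% and 2.72% in epineurial, 3.91% and 3.77% in endoneurial and 4.94% and 4.78% in MES_DIFF cells. In the 7 dividing cells of intact nerve it was 1 of 38 Hox UMIs. In dividing cells 2 of 12 members passed 2-fold at day 21 against day 7 (13.4% of all genes), with Hoxb4 higher and Hoxc8 lower. Hoxb2 was 8.10 CPM at day 21 and 11.6 CPM at day 7, and Hoxb7 was 4.72 and 4.25 CPM. Of the dividing cells, 68 of 119 at day 21 and 65 of 206 at day 7 carried at least 4 markers of another cell type, mostly of Schwann cells or pericytes. Without these cells Hoxb supplied 4 of 160 Hox UMIs of dividing cells at day 21 and 41 of 745 at day 7. Hoxb7 then had 0 UMIs at day 21 and 0.534 CPM at day 7, and Hoxb2 was 1.45 and 8.02 CPM.

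Hox patterns of other cell types were read from barcodes with no class that carried markers of 1 type. Endothelial- and Schwann-marker barcodes had far larger Hoxb shares than the layers, while pericyte and vascular smooth muscle barcodes held mostly Hoxa and Hoxc. Endothelial-marker barcodes (26 in intact nerve, 55 at day 7 and 131 at day 21) had summed Hox levels of 634, 355 and 485 CPM. Hoxb supplied 58.1%, 37.1% and 49.3% of their Hox UMIs and Hoxd 24.6%, 20.5% and 17.3%, while Hoxc supplied 0 of 167, 23 of 264 and 7 of 503. Their leading members were Hoxa7 with 60.7, 68.5 and 83.9 CPM, Hoxb7 with 87.3, 39.0 and 51.1 CPM and Hoxb9 with 68.3, 13.4 and 42.4 CPM. Hoxd9 had 72.1, 28.2 and 26.03 CPM and Hoxd8 53.1, 32.3 and 40.5 CPM. Hoxb9 and Hoxd9 reached at most 0.478 CPM in the annotated cells of a library. Hoxd10 had 2, 1 and 2 UMIs in endothelial-marker barcodes and none in annotated cells.

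Schwann-marker barcodes had a low Hox level, at 83.1 CPM in 1399 barcodes of day 21 and 90.4 CPM in 282 of day 7. Their Hoxb share was 32.5% at day 21 and 51.6% at day 7. Hoxb2 was 8.53 CPM at day 21 and 16.4 CPM at day 7, against 0 UMIs and 0.476 CPM in myeloid-marker barcodes, and Hoxb4 was 12.4 and 10.4 CPM. Their Hoxc10 level of 6.09 CPM at day 21 and 4.35 CPM at day 7 was at or below that of myeloid-marker barcodes. Vascular smooth muscle barcodes of intact nerve, 134 in all, were closer to the annotated cells, with 46.1% Hoxc and 43.0% Hoxa at 225 CPM. In the bridge there were only 5 at day 7 and 25 at day 21. Hoxb supplied 9 of their 193 Hox UMIs in intact nerve, 2 of 7 at day 7 and 10 of 49 at day 21. Pericyte-marker barcodes (16 in intact nerve, 43 at day 7 and 65 at day 21) had 434, 288 and 378 CPM. Hoxc supplied 63.6%, 54.5% and 46.2% of their Hox UMIs, Hoxa 33.3%, 26.8% and 42.3% and Hoxb 3.03%, 17.0% and 11.5%.

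**Figure D4:**
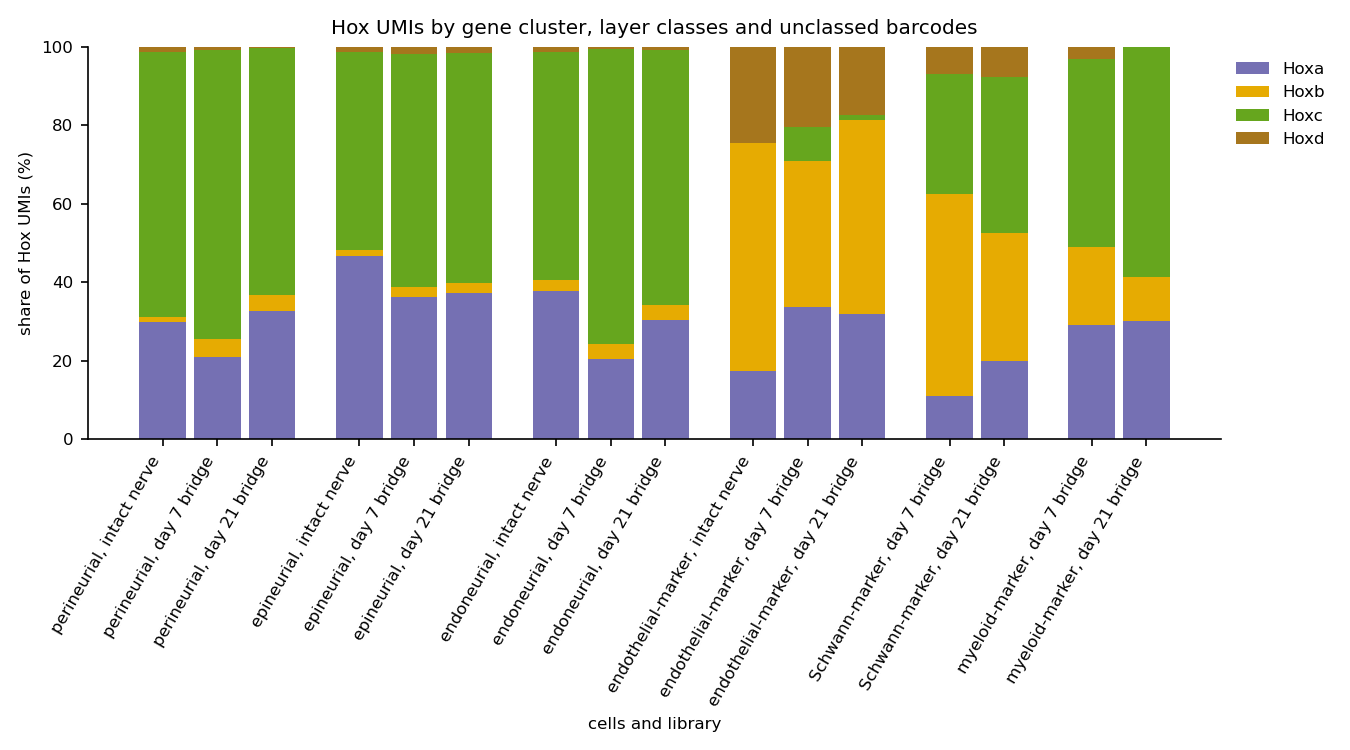
Share of Hox UMIs (%) from the Hoxa, Hoxb, Hoxc and Hoxd clusters in the layer classes and in unclassed barcodes with endothelial, Schwann or myeloid markers, 1 bar per library. Hoxc and Hoxa fill the bars of the layers, while Hoxb and Hoxd supply most UMIs of endothelial-marker barcodes.

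**Figure D5:**
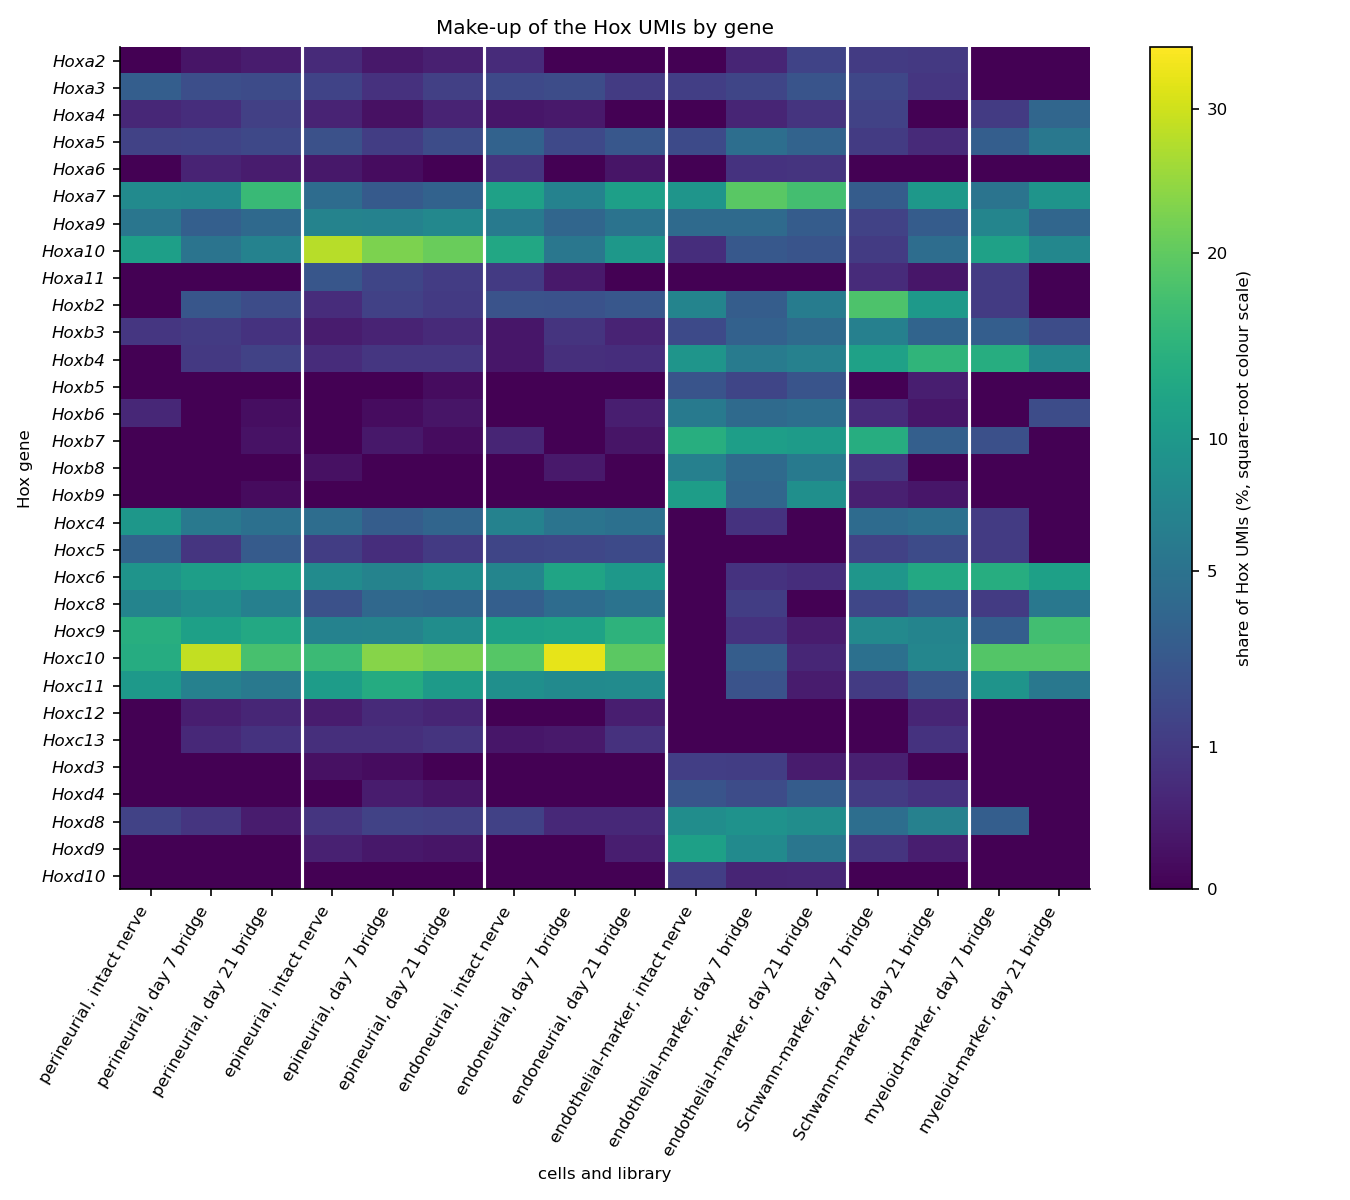
Share of all Hox UMIs (%) supplied by single Hox genes (vertical) in the layer classes and marker-defined barcodes (horizontal), on a square-root colour scale. Hoxa10 and Hoxc10 are the brightest genes in epineurial cells, and Hoxb7, Hoxb9, Hoxd8 and Hoxd9 are brighter in endothelial-marker barcodes than in any layer.

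Genes that act with or around the Hox genes were described from lists. Of the 9 TALE homeodomain cofactors, which bind DNA beside Hox proteins, none was more than 2-fold apart between any 2 libraries over all annotated cells, beside 26.1% of all genes at day 7 and 17.1% at day 21 against intact nerve and 18.0% at day 21 against day 7. Within classes, 1 of 9 was higher and 1 lower in perineurial cells at day 21 against intact nerve (22.9% of all genes either way). In dividing cells 2 of 9 were lower at day 21 against day 7 (13.4% of all genes either way). Meis2 had 31.3 CPM in intact nerve, 42.0 CPM at day 7 and 36.7 CPM at day 21, and Pbx2 18.5, 19.7 and 24.1 CPM. Of the 10 trithorax group and demethylase genes, which keep Hox genes active, none was 2-fold apart over all annotated cells, beside the same shares of all genes as for the cofactors. At day 7 against intact nerve, 1 of 10 was lower in endoneurial and 1 of 10 higher in perineurial cells (20.4% and 28.6% of all genes either way). At day 21 against day 7, 1 of 10 was higher in endoneurial and 1 of 10 in MES_DIFF cells (11.1% and 17.6% either way). Over all annotated cells Kdm6a, with 22.5, 14.3 and 23.6 CPM, had the largest log2 ratio to intact nerve among those above 20 CPM, at -0.66 for day 7. Of 22 Polycomb group genes, which keep Hox genes silent, 2 were more than 2-fold higher and 3 lower at day 7 against intact nerve over all annotated cells, beside 11.4% and 14.6% of all genes. Ezh1 had 43.8, 10.6 and 29.6 CPM, Ezh2 10.03, 27.8 and 18.3 CPM, Phf1 25.1, 7.82 and 16.8 CPM and Bmi1 12.2, 20.7 and 27.5 CPM. Phc2 was the other higher gene and Cbx7 the other lower one, both named after their values were seen. Ezh1 is the subunit of resting cells and Ezh2 that of dividing cells.

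Among limb and body position factors, Pitx1, the hindlimb selector gene, was detected in each library. Tbx5, the forelimb factor, and Tbx4, the hindlimb T-box gene, were both near 0 in the bridge libraries, and Tbx4 was the lower at day 7. Pitx1 had 5.61, 10.8 and 12.7 CPM in intact nerve, day 7 and day 21. In the same order Tbx5 had 0.358, 0.442 and 0.297 CPM (3, 16 and 10 UMIs). Tbx4 had 1.67, 0.194 and 0.534 CPM (14, 7 and 18 UMIs). Pitx1 was 19.8 CPM in epineurial and 3.22 CPM in endoneurial cells of day 21. Of the list, 3 of 16 genes were more than 2-fold higher and 3 lower at day 7 against intact nerve, beside 11.4% and 14.6% of all genes, and 4 of 17 higher and 4 lower at day 21, beside 8.90% and 8.20%. Tbx18 had 39.9, 18.9 and 32.5 CPM, Twist2 24.97, 12.6 and 12.1 CPM, Prrx2 35.2, 63.2 and 31.9 CPM and Shox2 80.4, 52.3 and 51.8 CPM. Cdx1, Cdx2 and Cdx4, which switch on trunk Hox genes in the embryo, had no UMI in any annotated cell. Of the other axial genes, Meox1 had 72.0, 21.3 and 26.9 CPM and Meox2 115, 119 and 295 CPM.

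Noncoding transcripts of the clusters were detected beside the Hox genes. Hotairm1 had 31.2, 17.9 and 33.2 CPM in intact nerve, day 7 and day 21. Hoxa11os, antisense to Hoxa11, had 2.63, 1.22 and 0.416 CPM, and like Hoxa11 it had 0 UMIs in perineurial cells of each library. Hoxa11 and Hoxa11os share 800 exonic bases on opposite strands, and whether the authors' counting used strand is not given in the sources used here. Hotair, from the Hoxc cluster between Hoxc11 and Hoxc12, had 4.78, 2.49 and 2.97 CPM. Of the list, 0 of 5 were more than 2-fold higher and 1 lower at day 7 against intact nerve, beside 11.4% and 14.6% of all genes, and 0 of 6 higher and 1 lower at day 21, beside 8.90% and 8.20%.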

How the data were processed

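Droplet single-cell RNA sequencing was measured in 3 libraries of sorted TdTomato-positive sciatic nerve cells. The matrices the authors deposited hold UMI counts as whole numbers. Per the submitters' processing notes the tools were Cell Ranger 6.1.2 and 3.0.2 and Seurat 4.0.1, without saying which version made which library. The deposited cell metadata gives each cell 1 of 6 classes and was used as it stands. Of the cells it lists for day 21, 4111 of 4112 were found.

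UMIs were summed per library and class and scaled to CPM, and log2 ratios were formed after 0.5 was added to each sum. Intervals are exact (Poisson, conditional binomial or Clopper-Pearson, 95%) and cover counting error only. Cells are not replicates, so no test was run. A gene was counted as past the fold where it differed more than 2-fold with at least 20 counts over both sums, and the same rule over all genes gives the background. Named in the text are members with at least 20 counts in all, with the 12 of largest summed CPM and any past the fold given in most detail. From each list of other genes, up to 4 with the largest ratio and at least 20 CPM are named, and Tbx4, Pitx1 and Tbx5 always. The lists and members were chosen with earlier results of these data known.

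Barcodes with no class entered where they had at least 2000 UMIs, 1000 genes and under 10% mitochondrial UMIs. They were called by marker where at least 4 genes of 1 list and at most 2 of each other list had a UMI, a rule chosen after the lists. No doublet caller was run. Gene positions came from GENCODE M21, where 38 of 39 members had the same identifier version, and promoter sequences from RefSeq. Values of 1 member and of 1 cofactor are not reported here. The ratio step was tested on simulated data. Work was done in Python 3.11.15 with numpy 2.4.6, scipy 1.17.1 and pandas 2.3.3.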

Additional observations from a re-analysis of the deposited data

Results flagged for a closer look

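Hoxa7 moved in opposite directions in 2 layers between the same libraries. At day 21 against intact nerve its log2 ratio was 0.85 in perineurial cells and -0.84 in epineurial cells, with both intervals of the ratio excluding 1. The difference between the layers was not tested, since each group is 1 library.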

How the results depend on the processing

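No paired analysis was possible because each group is 1 library and the result comes from no test. The depth of the intact library and its 116 perineurial cells limit the weak members. Of 534 recomputed ratios of single genes, 462 moved by less than their interval, 67 by more and 5 changed sign. Hoxb7 at day 7 against intact nerve changed sign with every barcode past the depth filters (-0.26), with 1 class mixture (-1.08), with thinning (-0.41) and without the dividing class (-0.63), and Hoxb3 at day 21 against intact nerve with 1 class mixture (-0.00199). The same mixture ended the 2-fold calls of Hoxa7 at day 7 (-0.85) and of Hoxa2 (-0.96), Hoxa10 (-0.85) and Hoxa4 (0.60) at day 21 against intact nerve, and of Hoxa5 at day 21 against day 7 (0.73). Thinning ended those of Hoxa11 (-0.66) and Hoxc4 (-0.77) at day 7 and of Hoxb4 (0.89) at day 21 against intact nerve.

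Scaling by median-of-ratios size factors moved the median of all genes at day 7 against intact nerve from -0.06 to 0.10 on the log2 scale and the summed Hox ratio to -0.44, and at day 21 against day 7 to 0.23. With every barcode the summed ratios were -0.72 for day 7 against intact nerve, -0.44 for day 21 against intact nerve and 0.28 for day 21 against day 7. The last was 0.28 with 1 class mixture and 0.43 with each cell weighted alike.

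Members past the fold at day 7 against intact nerve (7 as reported) were 13 with every barcode, 4 after thinning, 12 with more than 3 counts in either library and 14 at 1.5-fold. At day 21 against intact nerve (7) they were 2 after thinning, 2 with at least 100 counts and 12 at 1.5-fold. At day 21 against day 7 (5) they were 8 with each cell weighted alike, 9 with every barcode, 3 with at least 100 counts and 12 at 1.5-fold. Thinning and the minimum of 100 counts leave fewer genes in the count, so fewer can be called. Within classes, after thinning, endoneurial day 21 against intact nerve gave 2 in place of 0 (1 with each cell weighted alike), epineurial 2 in place of 7 at day 7 and 2 in place of 1 at day 21, and perineurial 1 in place of 6 at day 7. With at least 100 counts, epineurial gave 3 at day 7 and 0 at day 21, and perineurial 0 at day 7 and 1 in place of 4 at day 21.

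Between classes, thinning gave for perineurial against epineurial 2 in place of 4 in intact nerve and 2 in place of 7 at day 7. For perineurial against endoneurial it gave 1 in place of 4 in intact nerve, 0 in place of 1 at day 7 and 1 in place of 6 at day 21. For epineurial against endoneurial it gave 1 in place of 7 at day 7 and 3 in place of 5 at day 21. With at least 100 counts these 3 contrasts gave 1, 4 and 4, then 0, 0 and 2, and then 1, 3 and 2 in intact nerve, day 7 and day 21. The share of groups 9 to 13 was 63.0%, 64.3% and 55.4% after thinning and 66.1% at day 7 and 55.6% at day 21 with each cell weighted alike. The Hoxc10 share of Hox UMIs (16.7%, 27.5% and 19.9% in intact nerve, day 7 and day 21 as reported) was 13.7%, 26.4% and 17.8% after thinning and 18.4% at day 21 with each cell weighted alike. Leaving out annotated cells that carry at least 4 markers of another type, chosen after seeing the data, gave 6, 7 and 5 members past the fold in the 3 library comparisons.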
